A study of Homo sapiens with 12 samples.

Results

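The comparison described here is the effect of gemcitabine on MIA PaCa-2 cells kept in 40 mM L-glutamine. MIA PaCa-2 is an established line from a human pancreatic carcinoma. The members are all genes that reached 1 RPM (reads scaled to 1000000 per library) in at least 3 of the series' 12 RNA-seq libraries, which kept 12789 of 15090 listed genes. They were compared between 3 libraries with 0.5 µM gemcitabine and 3 without, so 6 of the 12 libraries carry the result. Every one of these 6 cultures received 40 mM glutamine, added back to glutamine-free medium, and was harvested at 48 h. The other 6 libraries, with 2 mM glutamine without or with the same drug dose, served to test whether the response differed between glutamine levels. The series design calls the 3 libraries of a group biological triplicates of 1 cell line.

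Gemcitabine is a deoxycytidine analogue that enters cells through nucleoside transporters and is phosphorylated by deoxycytidine kinase. Its diphosphate inhibits ribonucleotide reductase and its triphosphate is built into DNA, where it stops chain growth and stalls replication forks. Stalled forks activate the ATR and CHEK1 kinases and hold cells in S phase. Damaged DNA and displaced nucleic acids can be detected by cytosolic sensors, which switch on interferon-stimulated genes through dedicated transcription factors.

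Interferon-stimulated genes were the group that rose furthest. Of 39 tested effector genes of the interferon response, 29 rose and 1 fell, with a median log2 fold change of 0.75. Among all tested genes 14.1% rose and 16.2% fell (limma, Benjamini-Hochberg adjusted p under 0.05), and the median log2 fold change was -0.01. In all, 1809 genes rose and 2070 fell. Fold changes are differences of log2(RPM + 1), which understates the change of genes near 1 RPM, and p-values measure the spread between the 3 labelled triplicates of each group. Called genes moved by a median of 0.245 (log2), 45 genes rose at least 2-fold on this log2(RPM + 1) scale and 0 fell as far. In RPM itself genes near 1 RPM, such as GPD1 and BMF below, fell further than this scale shows. Of those 45 genes, 19 belong to the lists of interferon sensors, factors and effectors.

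The depth of the 6 libraries was 23488621 to 27224175 reads in listed genes. The epithelial keratins KRT8 and KRT18 and the mesenchymal filament vimentin (VIM) were all abundant, and the epithelial markers CDH1 and EPCAM were not analysed here. Leukocyte markers summed to at most 1.15 RPM and endothelial markers to at most 1.03 RPM in any of the 6 libraries, over 2 listed genes each. The summed level of 4 fibroblast markers was 885 to 913 RPM without the drug and 667 to 720 RPM with it. Nearly all of it was COL1A2, a collagen chain, at 868 to 897 RPM and 651 to 702 RPM. In bulk RNA, fewer cells of a kind and less RNA per cell cannot be told apart. RPM values are not divided by gene length, so levels are compared between libraries and not between genes.

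Promoters of some effector genes that rose at least 2-fold are shown first, chosen because they carry the motif that interferon-activated transcription factors bind. They are not the largest rises in order. The core of this interferon-stimulated response element was searched as GAAA, any 2 bases and GAAA again, on both strands, in the 250 bases upstream of each gene's start in a RefSeq promoter table (GRCh38.p14). Capitals mark each copy, which reads TTTC, 2 bases and TTTC on the opposite strand. The stretches are, in the order listed, chr1:1013360-1013429 (plus strand), chr10:89392490-89392559 (plus), chr10:89327836-89327914 (plus) and chr4:168318766-168318845 (minus).
ISG15: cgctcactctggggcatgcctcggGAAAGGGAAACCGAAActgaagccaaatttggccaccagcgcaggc
IFIT1: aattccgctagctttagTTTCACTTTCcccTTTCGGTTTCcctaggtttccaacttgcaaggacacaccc
IFIT3: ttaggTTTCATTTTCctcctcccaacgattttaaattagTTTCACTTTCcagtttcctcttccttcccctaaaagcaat
DDX60: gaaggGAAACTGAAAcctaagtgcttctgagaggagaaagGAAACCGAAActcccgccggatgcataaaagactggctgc
Each of these promoters holds 2 copies, which overlap in ISG15. The motif was found in 18 of the 30 effector promoters that matched the table by symbol (60%). It was found in 1 of 10 sensor promoters and in 1 of 13 promoters of the pathway's receptors and transcription factors. The share was 3.07% of all 27305 promoters and 2.2% of those of tested genes. A match describes the letters only, and binding was not measured.

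Sensors of foreign or misplaced nucleic acids are the entry to the pathway. Of 14 tested sensors and adaptors, 8 rose and 2 fell. IFIH1 (MDA5), a sensor of long double-stranded RNA, measured 8.45, 7.80 and 9.02 RPM without the drug and 30.5, 27.4 and 28.1 RPM with it. Its log2 fold change was 1.65 ± 0.099 (SE, limma adjusted p = 3.68e-15). Each treated library lay far above each untreated one. Over all tested genes the groups did not overlap in 40.6%, 19.2% higher and 21.4% lower with the drug. DDX58 (RIG-I), which detects RNA with free 5′ phosphates, measured 28.6, 28.9 and 27.4 RPM without and 80.4, 74.7 and 82.1 RPM with the drug, a log2 fold change of 1.45 ± 0.054 (adjusted p = 7.61e-21). STING1, the adaptor for cyclic dinucleotides made after DNA sensing, rose from 5.71, 6.29 and 4.99 RPM to 12.3, 14.3 and 15.04 RPM (1.16 ± 0.11, adjusted p = 4.03e-10). The groups were apart for both genes. The DNA sensor CGAS itself moved little, from 29.7, 31.8 and 30.4 RPM to 37.0, 34.0 and 36.0 RPM (0.21 ± 0.063, adjusted p = 0.00925).

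The 2 falls among the sensors and adaptors were MAVS and UNC93B1. MAVS, the mitochondrial adaptor for DDX58 and IFIH1, fell from 308, 301 and 300 RPM to 273, 284 and 268 RPM, by 0.14 on the log2 scale (adjusted p = 0.000701). UNC93B1, which carries nucleic acid-sensing Toll-like receptors to endosomes, had the largest fall among genes at or above the median level whose groups did not overlap. It measured 92.8, 86.2 and 85.5 RPM without and 48.9, 46.2 and 49.1 RPM with the drug, and fell by 0.86 ± 0.044 (adjusted p = 5.39e-17). The groups lay far apart. IFI16, another DNA sensor, did not pass the test (log2 fold change -0.11, adjusted p = 0.579), nor did the Toll-like receptor TLR3 (0.32, adjusted p = 0.182) at about 1 RPM.

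Receptors and transcription factors of the pathway responded unevenly: 6 of 18 tested rose and 2 fell, with a median log2 fold change of 0.02. IRF9, a DNA-binding factor of interferon signalling, rose from 16.3, 14.1 and 15.7 RPM to 23.0, 23.6 and 25.03 RPM (0.61 ± 0.079, adjusted p = 2.4e-07). STAT2 measured 45.5, 43.8 and 43.6 RPM without and 41.4, 42.4 and 40.0 RPM with the drug and did not pass the test (-0.10, adjusted p = 0.157). USP18, a protease that removes ISG15 from proteins and damps receptor signalling, rose from 10.3, 9.86 and 8.29 RPM to 15.5, 16.1 and 18.4 RPM (0.75 ± 0.10, adjusted p = 3.16e-07). The receptor chain IFNAR1 (0.03, adjusted p = 0.581), the kinase TYK2 (0.00, adjusted p = 0.984) and IRF3 (-0.03, adjusted p = 0.749), the factor that sensors activate first, did not pass the test.

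Effector genes carried the largest responses in the data set. ISG15, a ubiquitin-like protein that is attached to other proteins, measured 45.7, 38.2 and 42.6 RPM without the drug and 168, 165 and 180 RPM with it. The log2 fold change of 2.00 ± 0.050 had the smallest adjusted p of all genes (9.2e-26). OASL and OAS3, members of the oligoadenylate synthetase family, rose from 34.5, 34.2 and 34.4 RPM to 127, 126 and 136 RPM and from 25.4, 27.3 and 25.04 RPM to 67.2, 65.8 and 56.5 RPM. For both, the lowest treated value was more than 2-fold above the highest untreated one. Their log2 fold changes were 1.89 ± 0.053 and 1.25 ± 0.064. OAS2, of the same family, was at low level and rose from 6.38, 6.13 and 5.43 RPM to 27.1, 26.9 and 25.1 RPM (1.97 ± 0.10, adjusted p = 1.4e-16).

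The IFIT proteins bind viral RNA and block its translation. IFIT3 rose from 63.4, 59.9 and 60.3 RPM to 178, 183 and 188 RPM (1.57 ± 0.042, adjusted p = 7.07e-25), IFIT1 from 80.2, 81.2 and 74.5 RPM to 201, 183 and 195 RPM (1.28 ± 0.042, adjusted p = 1.34e-22) and IFIT2 from 88.2, 80.4 and 81.3 RPM to 175, 179 and 176 RPM (1.08 ± 0.042, adjusted p = 1.97e-20). In none of these genes did the groups overlap. DDX60, a helicase that promotes RNA sensing, rose from 15.3, 20.9 and 14.6 RPM to 66.7, 65.2 and 65.1 RPM, and HERC5, the ligase that attaches ISG15, from 11.8, 13.4 and 12.6 RPM to 48.5, 48.9 and 51.0 RPM. IFI6, a mitochondrial protein that delays apoptosis, rose from 22.4, 17.4 and 18.8 RPM to 43.7, 43.7 and 45.6 RPM. Their log2 fold changes were 1.91 ± 0.082, 1.89 ± 0.080 and 1.15 ± 0.076.

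**Figure D1:**
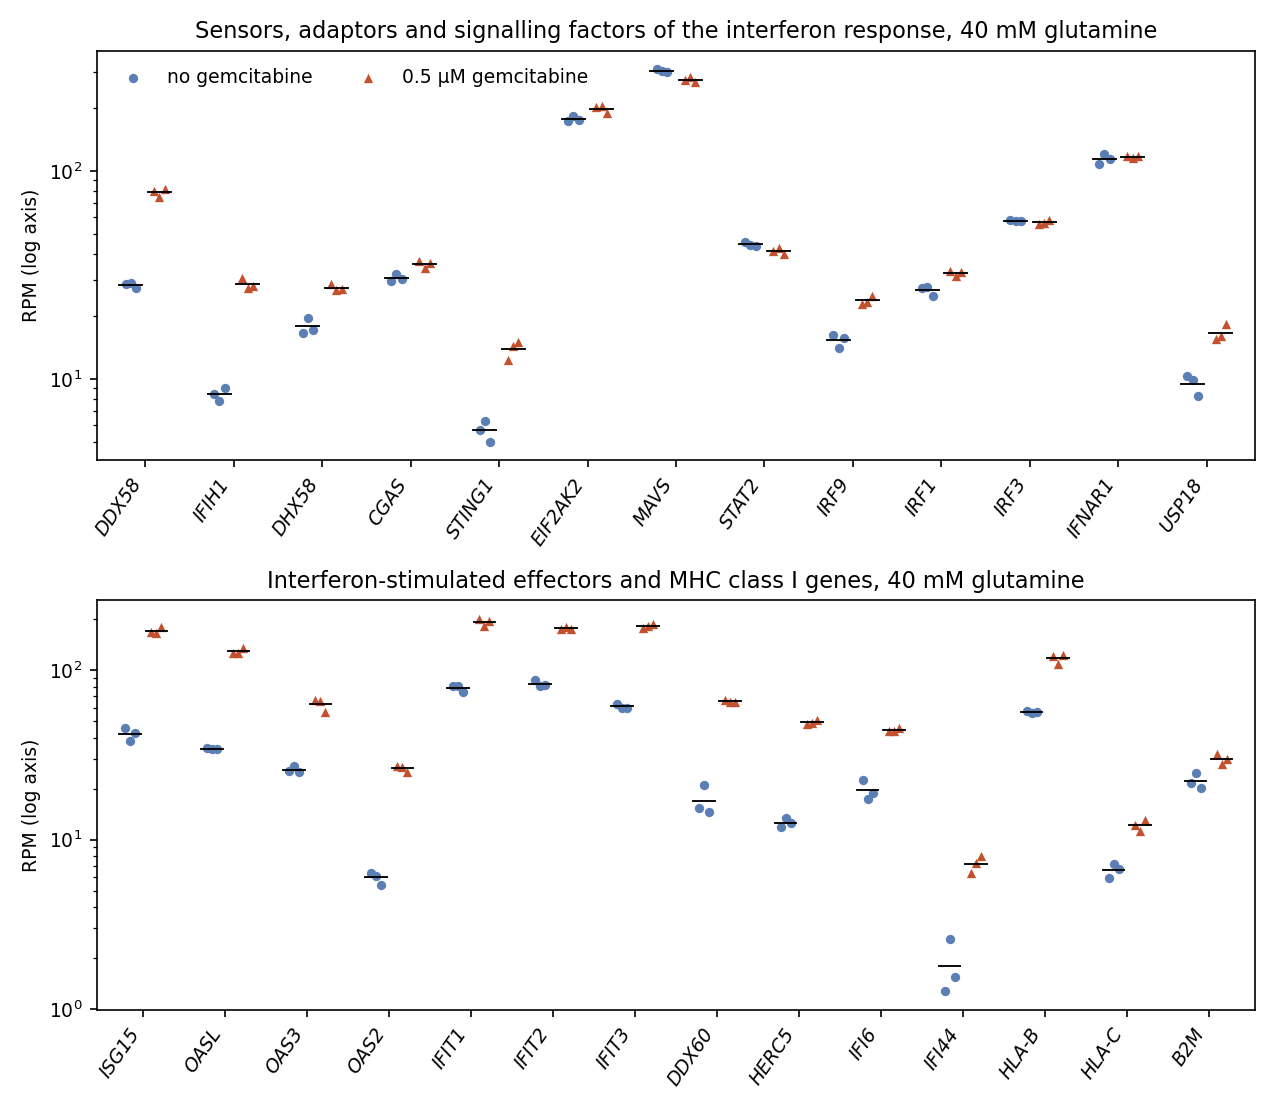
Levels of interferon pathway genes in the 6 libraries at 40 mM glutamine, in RPM on a log axis. Circles are the 3 libraries without gemcitabine, triangles the 3 with 0.5 µM, and bars the group means; effectors such as ISG15 (38.2 to 45.7 against 165 to 180 RPM) stand far apart, while MAVS and IFNAR1 lie close together.

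At 2 mM glutamine the same effector list had a median log2 fold change of 0.55. The difference between the responses was tested as an interaction, the response at 40 mM minus that at 2 mM, and 2.2% of all genes passed. Of the 39 effectors, 4 passed, each with the higher response at 40 mM. A larger rise at 40 mM was seen in IFIT1 (1.28 at 40 mM and 0.87 at 2 mM, difference 0.41 ± 0.060, adjusted p = 0.000112), DDX60 (1.91 and 1.45, difference 0.46 ± 0.12, adjusted p = 0.0264) and IFI6 (1.15 and 0.75, difference 0.40 ± 0.11, adjusted p = 0.0423). IFITM1 rose at neither level. It fell at 2 mM (-0.39, adjusted p = 2.67e-08) and did not pass at 40 mM (-0.08, adjusted p = 0.208). Its difference was 0.32 ± 0.065 (adjusted p = 0.00584). The count fell to 2 without untreated replicate 3 or treated replicate 1 or 2 at 40 mM, and without untreated replicate 1 or treated replicate 1 or 3 at 2 mM. The differences of DDX60 and IFI6 missed the threshold in 7 and 9 of the 12 fits that left out 1 library. For ISG15 (0.17 ± 0.070, adjusted p = 0.243), OASL (-0.06 ± 0.075, adjusted p = 0.748) and IFIT3 (0.00 ± 0.060, adjusted p = 0.996) a difference was not detected.

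Antigen presentation through MHC class I, which interferon raises in many cells, rose in part. Of 12 tested genes 7 rose and 1 fell. HLA-B measured 57.7, 55.9 and 56.5 RPM without and 121, 109 and 124 RPM with the drug (1.04 ± 0.046, adjusted p = 1.26e-18). The shared light chain B2M moved from 21.5, 24.9 and 20.3 RPM to 31.9, 28.0 and 29.9 RPM (0.42 ± 0.079, adjusted p = 9.68e-05). Both kept their groups apart. TAPBP (tapasin), which loads peptides onto these molecules, fell from 10.7, 9.48 and 9.28 RPM to 6.99, 7.87 and 6.47 RPM (by 0.41 ± 0.11, adjusted p = 0.00262). HLA genes are near-identical to each other, and reads may have been split between them.

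Secreted signals and immediate-early transcription factors formed a further rising group. Of 14 tested cytokines, chemokines and growth factors 9 rose and 1 fell, and of 31 immediate-early, AP-1 and MAPK feedback genes 17 rose and 5 fell. CSF3 (G-CSF), which drives neutrophil production, rose from 16.6, 16.3 and 17.4 RPM to 38.1, 41.9 and 41.3 RPM (1.22 ± 0.065, adjusted p = 1.95e-16). CXCL8 (interleukin 8), a neutrophil attractant, rose from 15.7, 13.9 and 15.5 RPM to 29.1, 29.6 and 28.3 RPM (0.90 ± 0.072, adjusted p = 5.3e-12), and LIF, an interleukin 6 family cytokine, from 25.1, 22.2 and 24.8 RPM to 42.2, 42.6 and 38.5 RPM (0.75 ± 0.067, adjusted p = 8.36e-11). Treated and untreated libraries were apart in each. CSF1, the macrophage growth factor, fell from 125, 130 and 126 RPM to 102, 97.4 and 96.4 RPM (by 0.36 ± 0.038, adjusted p = 2.61e-09). NFKBIZ, a nuclear cofactor of NF-kappaB, rose from 11.3, 12.6 and 10.2 RPM to 24.4, 27.2 and 24.5 RPM (1.09 ± 0.091, adjusted p = 1.56e-11), while the inhibitor NFKBIA rose by 0.18 ± 0.041 (adjusted p = 0.00111). Of 18 NF-kappaB subunits and inhibitors 7 rose and 0 fell.

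EGR1, a zinc finger factor induced within minutes by serum response factor, was the largest riser outside the interferon lists among genes at or above the median level. A pair of the CArG boxes which that factor binds (CCATATTAGG and CCATATATGG, in capitals) lies upstream of its start, at chr5:138465366-138465435 on the plus strand.
EGR1: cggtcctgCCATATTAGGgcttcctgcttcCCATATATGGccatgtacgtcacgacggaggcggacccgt
In the immediate-early list 2 of 24 matched promoters held a CArG box (EGR1 and SRF), and 1 of the 11 whose genes rose. The share was 1.14% of all promoters and 0.954% of those of tested genes. EGR1 measured 17.9, 23.2 and 17.6 RPM without and 58.2, 56.0 and 56.9 RPM with the drug (1.51 ± 0.074, adjusted p = 2.52e-17). The AP-1 subunit FOSL1 rose from 109, 108 and 104 RPM to 156, 152 and 140 RPM (0.48 ± 0.039, adjusted p = 1.09e-11) and FOS, near the lower limit, from 1.14, 1.68 and 1.65 RPM to 3.96, 4.43 and 5.05 RPM (1.14 ± 0.15, adjusted p = 2.33e-07). MYC went the other way, from 225, 220 and 223 RPM to 185, 189 and 188 RPM (by 0.25 ± 0.031, adjusted p = 1.19e-07).

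PLAUR, the urokinase receptor, rose from 31.1, 33.4 and 26.9 RPM to 57.2, 58.9 and 55.8 RPM (0.90 ± 0.058, adjusted p = 3.08e-14). CD68, a lysosomal glycoprotein also used as a macrophage marker, rose from 22.5, 20.9 and 19.4 RPM to 43.5, 42.9 and 43.0 RPM (1.01 ± 0.062, adjusted p = 9.41e-15). LCN2, an iron-siderophore carrier of inflamed epithelia, rose from 3.34, 2.43 and 2.68 RPM to 10.3, 11.9 and 10.9 RPM (1.67 ± 0.12, adjusted p = 1.03e-12). The leukocyte marker sum of at most 1.15 RPM given above covers 2 of 10 markers (CD14 and LYZ). Which cells carried the CD68 RNA was not tested.

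Genes of DNA replication rose almost throughout, by small amounts. Of 26 origin licensing and helicase genes 21 rose and 0 fell (median 0.32), and of 30 polymerase, clamp and lagging-strand genes 25 rose and 1 fell (median 0.23). Both lists carry the E2F motif more often than promoters in general: TTTCCCGC or TTTGGCGC, on either strand, lies in 6 of 22 and 7 of 26 matched promoters, against 1.96% of all promoters and 3.32% of those of tested genes. A single copy is shown in capitals for MCM7, a helicase subunit (chr7:100101547-100101614, minus strand), and PCNA, the sliding clamp (chr20:5126644-5126711, minus strand).
MCM7: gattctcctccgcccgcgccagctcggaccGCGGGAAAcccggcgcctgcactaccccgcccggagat
PCNA: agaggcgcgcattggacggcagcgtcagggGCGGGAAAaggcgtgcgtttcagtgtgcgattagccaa
MCM7 measured 496, 492 and 526 RPM without and 616, 652 and 630 RPM with the drug (0.33 ± 0.032, adjusted p = 7.58e-10). PCNA measured 112, 115 and 119 RPM and then 148, 144 and 144 RPM (0.33 ± 0.036, adjusted p = 5e-09). CDC6, which loads the helicase at origins, rose from 74.0, 80.4 and 84.1 RPM to 113, 110 and 102 RPM (0.44 ± 0.048, adjusted p = 4.93e-09). The shifts were modest, yet no treated library reached down to an untreated one. CDC45, a helicase activator, rose by 0.57 ± 0.051 (adjusted p = 7.26e-11) and CLSPN (claspin), which couples ATR to CHEK1, by 0.54 ± 0.047 (adjusted p = 4.22e-11).

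Part of these genes rose less at 40 mM than at 2 mM glutamine. In the licensing list, whose median at 2 mM was 0.49, 10 of 26 genes passed the interaction test, all 10 with the smaller rise at 40 mM. They include MCM5 (0.30 at 40 mM and 0.68 at 2 mM, difference -0.38 ± 0.053, adjusted p = 6.37e-05), CDC6 (0.44 and 0.90, difference -0.46 ± 0.067, adjusted p = 0.000119), MCM4 (0.35 and 0.62, difference -0.27 ± 0.042, adjusted p = 0.000217) and MCM7 (0.33 and 0.56, difference -0.23 ± 0.046, adjusted p = 0.00361). In the fork list 7 of 30 passed in the same direction, among them PCNA (0.33 and 0.67, difference -0.34 ± 0.050, adjusted p = 0.000119) and the chromatin assembly subunit CHAF1A (0.24 and 0.62, difference -0.38 ± 0.060, adjusted p = 0.000217). The fork count was 4 without untreated replicate 1 at 2 mM and 3 without treated replicate 1 at 2 mM. The licensing count was 8 to 10 in every alternative run.

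Regulators of the G1 phase moved in both directions: 13 of 27 rose and 4 fell. E2F1, which drives S-phase transcription, rose from 53.5, 56.4 and 61.4 RPM to 82.1, 83.7 and 84.0 RPM (0.54 ± 0.050, adjusted p = 1.9e-10). Cyclin D1 (CCND1) fell from 278, 295 and 283 RPM to 233, 233 and 219 RPM (by 0.32 ± 0.033, adjusted p = 1.61e-09), whereas cyclin D3 (CCND3) rose from 46.9, 44.2 and 46.9 RPM to 64.5, 64.8 and 59.2 RPM (0.44 ± 0.051, adjusted p = 1.68e-08). Both shifts left the groups apart. The CDK inhibitors also differed. CDKN1A (p21), at low level, rose from 4.10, 2.14 and 3.96 RPM to 8.15, 9.98 and 7.82 RPM (1.16 ± 0.15, adjusted p = 9.61e-08), and CDKN1B (p27) fell from 43.8, 45.5 and 42.4 RPM to 32.5, 33.5 and 32.6 RPM (by 0.41 ± 0.055, adjusted p = 3.7e-07).

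Most genes of 3 mitotic lists rose, and fewer of the anaphase promoting complex list. Of 29 kinesin, cytokinesis and condensation genes 28 rose and 0 fell (median 0.35), of 26 kinetochore and spindle checkpoint genes 24 rose and 0 fell (median 0.32), and of 18 mitotic entry genes 16 rose and 1 fell (median 0.34). Of 19 genes of the anaphase promoting complex and separase 6 rose and 1 fell (median 0.05). HMMR, a spindle protein, rose furthest of those named. Its promoter holds 2 adjoining copies of the CHR motif TTTGAA, at which cell cycle repressor complexes bind late-cycle genes (chr5:163460580-163460631, plus strand).
HMMR: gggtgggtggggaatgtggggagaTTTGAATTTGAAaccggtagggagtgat
HMMR measured 81.1, 83.0 and 82.1 RPM without and 131, 134 and 129 RPM with the drug (0.67 ± 0.039, adjusted p = 2.25e-15). The motif was found on either strand in 15 of 28 kinesin and cytokinesis promoters (53.6%), in 6 of 13 mitotic entry promoters (46.2%), in 6 of 21 kinetochore promoters (28.6%), in 13.6% of all promoters and in 7.9% of those of tested genes. Cyclin B1 (CCNB1) rose from 274, 278 and 277 RPM to 348, 341 and 367 RPM (0.35 ± 0.032, adjusted p = 1.79e-10), the ubiquitin-conjugating enzyme UBE2C from 119, 117 and 133 RPM to 176, 182 and 185 RPM (0.56 ± 0.039, adjusted p = 2.06e-13) and the kinase AURKB from 85.7, 86.5 and 93.2 RPM to 130, 132 and 131 RPM (0.56 ± 0.040, adjusted p = 4.17e-13). The groups of all 4 genes were separate.

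In contrast to the licensing genes, the mitotic genes that differed between glutamine levels mostly rose more at 40 mM. In the mitotic entry list 4 had the larger and 1 the smaller rise at 40 mM, and in the kinesin list 5 of 29 had the larger rise. HMMR rose by 0.67 at 40 mM and 0.38 at 2 mM (difference 0.29 ± 0.056, adjusted p = 0.00249), PTTG1 (securin) by 0.50 and 0.27 (0.23 ± 0.054, adjusted p = 0.0139), BUB1, a spindle checkpoint kinase, by 0.35 and 0.14 (0.21 ± 0.049, adjusted p = 0.0137) and CCNB1 by 0.35 and 0.14 (0.21 ± 0.046, adjusted p = 0.00996). Without treated replicate 1 at 2 mM the differences of PTTG1 and CCNB1 had an adjusted p of 0.0537, and 2 genes of the mitotic entry list passed. In the kinesin list 3 passed without treated replicate 2 at 40 mM, untreated replicate 2 at 2 mM or treated replicate 1 or 2 at 2 mM. With quantile normalization 8 members of each list passed.

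**Figure D2:**
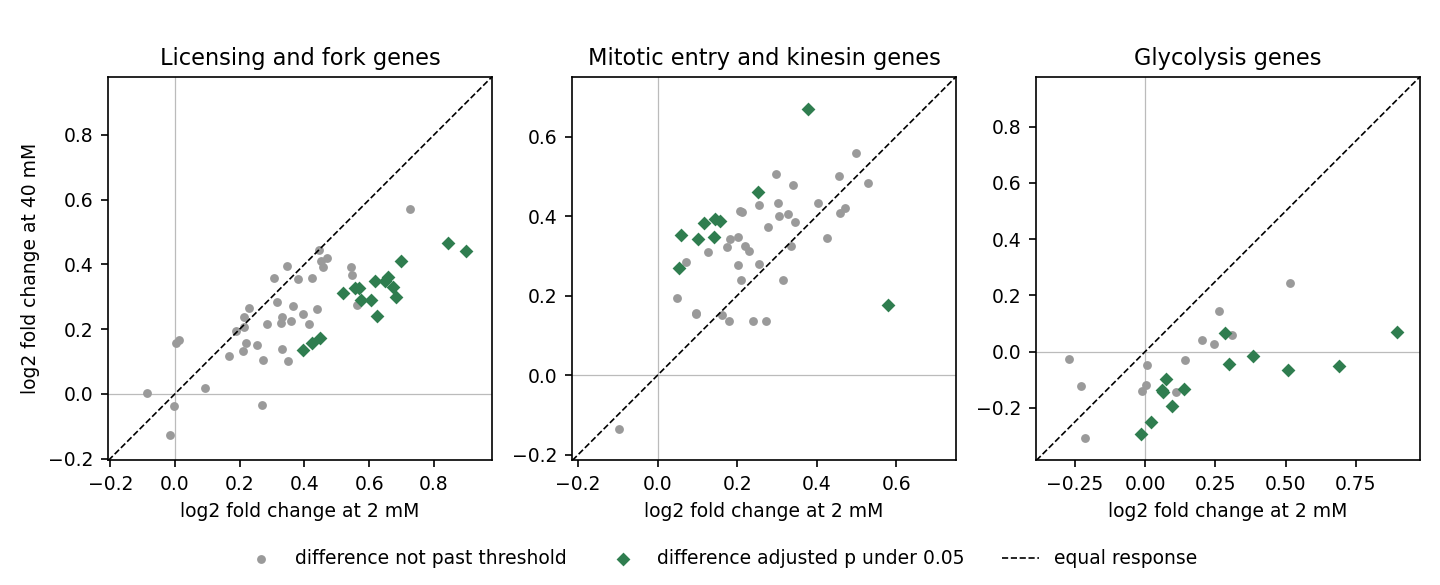
Log2 fold changes with 0.5 µM gemcitabine at 2 mM (horizontal) and 40 mM glutamine (vertical), 1 point per tested list member; green diamonds passed the interaction test and the dashed line marks equal responses. Licensing and fork genes that passed lie below the line (MCM5, 0.68 and 0.30), mitotic ones mostly above it (HMMR, 0.38 and 0.67), and glycolysis ones below it (PFKFB4, 0.90 and 0.07).

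Homologous recombination and Fanconi anaemia genes, which repair broken and cross-linked replication forks, rose in 26 of 37 cases with 0 falls (median 0.29). EXO1, an end-resecting nuclease, rose from 29.97, 33.6 and 33.8 RPM to 54.7, 48.4 and 46.8 RPM (0.61 ± 0.062, adjusted p = 1.87e-09) and BRCA1 from 57.2, 60.7 and 57.0 RPM to 73.0, 80.5 and 78.9 RPM (0.40 ± 0.047, adjusted p = 1.91e-08). The groups did not overlap in either gene. Mismatch, excision and end-joining repair moved less, with 10 of 35 up and 3 down (37.1% called, against 30.3% of all genes). Among 20 checkpoint and fork protection genes 6 rose, 1 fell and 13 did not pass, so the share called (35%) was near that over all genes. By direction 28.6% of the former list and 30% of the latter rose, against 14.1% of all genes. CHEK2 rose from 48.8, 48.6 and 47.7 RPM to 72.0, 72.2 and 74.9 RPM (0.59 ± 0.046, adjusted p = 3.78e-12). ATM, the kinase of double-strand breaks that activates CHEK2, fell from 84.7, 89.8 and 85.6 RPM to 72.9, 72.2 and 76.3 RPM (by 0.23 ± 0.053, adjusted p = 0.00111).

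Among genes that govern the fate of gemcitabine itself, RRM2, a subunit of its target ribonucleotide reductase, rose furthest of those named. Of 26 tested transporters, kinases, inactivating enzymes and targets, 8 rose and 2 fell (30.8% and 7.69%, against 14.1% and 16.2% of all genes). The share called was 38.5%, against 30.3% of all genes. This small subunit, RRM2, rose from 275, 285 and 283 RPM to 401, 402 and 383 RPM (0.49 ± 0.031, adjusted p = 1.77e-14). The large subunit RRM1 rose from 211, 226 and 216 RPM to 269, 261 and 265 RPM (0.28 ± 0.032, adjusted p = 1.49e-08). RRM2B, the subunit used outside S phase, did not pass (-0.15, adjusted p = 0.0585). DCK, the activating kinase, rose from 19.3, 25.3 and 21.3 RPM to 25.5, 28.9 and 30.7 RPM (0.36 ± 0.082, adjusted p = 0.000896), and its lowest treated value lay only just above its highest untreated one. SLC29A1 (ENT1), the main uptake transporter, measured 93.6, 92.6 and 96.0 RPM without and 104, 108 and 100 RPM with the drug (0.14 ± 0.041, adjusted p = 0.00738; adjusted p = 0.0558 without treated replicate 2). SLC29A2 (ENT2) fell from 16.3, 16.6 and 19.2 RPM to 14.7, 14.1 and 13.4 RPM (by 0.28 ± 0.084, adjusted p = 0.00955; adjusted p = 0.0851 without untreated replicate 3).

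The inactivating enzymes moved little. Cytidine deaminase (CDA) lay at 0.845, 1.55 and 1.94 RPM without and 1.56, 1.66 and 1.18 RPM with the drug, a level at which only a large change could be detected (0.03 ± 0.18, adjusted p = 0.916). DCTD, which deaminates the monophosphate, did not pass (-0.10 ± 0.042, adjusted p = 0.0679). The cytosolic nucleotidase NT5C2 rose from 46.9, 46.3 and 48.9 RPM to 57.5, 55.8 and 52.3 RPM (0.22 ± 0.052, adjusted p = 0.00144) and SAMHD1, which cleaves nucleoside triphosphates, from 61.0, 64.0 and 59.2 RPM to 69.8, 72.8 and 71.5 RPM (0.21 ± 0.046, adjusted p = 0.000419). RRM2 rose less at 40 mM than at 2 mM (0.49 and 0.76, difference -0.27 ± 0.044, adjusted p = 0.000386), as did the thymidine kinase TK1 (0.33 and 0.65, difference -0.33 ± 0.060, adjusted p = 0.00154) and SLC29A1 (0.14 and 0.40, difference -0.26 ± 0.058, adjusted p = 0.012; adjusted p = 0.0577 without treated replicate 2 at 2 mM). For DCK the difference (0.35 ± 0.12) had an adjusted p of 0.111.

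Stress and growth arrest genes moved in both directions. In a list of 29 tested p53 target genes 11 rose (37.9%, against 14.1% of all genes) and 4 fell (13.8%, against 16.2%). The rises include GADD45A (0.57 ± 0.052, limma adjusted p = 1.56e-10) and AEN (0.54 ± 0.053, adjusted p = 5.11e-10). Beside CDKN1A, GDF15, a stress cytokine, rose from 1.65, 1.26 and 1.58 RPM to 3.24, 4.18 and 4.26 RPM (0.97 ± 0.155, adjusted p = 7.98e-06). MDM2, a ubiquitin ligase, rose by 0.16 ± 0.049 (adjusted p = 0.00961; adjusted p = 0.0567 without untreated replicate 1). BTG2, an antiproliferative factor, fell from 29.0, 27.0 and 28.9 RPM to 19.2, 18.1 and 19.4 RPM (by 0.56 ± 0.067, adjusted p = 4.52e-08), and PLK2 from 580, 585 and 583 RPM to 496, 480 and 471 RPM (by 0.27 ± 0.029, adjusted p = 3.72e-09). In both the treated libraries lay wholly below the untreated ones.

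Of 29 BCL2 family and caspase genes 7 rose and 2 fell. The share called (31%) was near that over all genes (30.3%). PMAIP1 (NOXA), a BH3-only protein that neutralises MCL1, stood out with 7.86, 7.64 and 7.92 RPM without and 21.6, 23.7 and 23.6 RPM with the drug (1.44 ± 0.088, adjusted p = 7.22e-15). The survival protein BCL2L1 (BCL-XL) rose from 68.3, 63.5 and 66.7 RPM to 78.7, 78.5 and 80.1 RPM (0.26 ± 0.044, adjusted p = 2.55e-05). BMF, another BH3-only protein, fell from 2.54, 2.35 and 2.38 RPM to 0.919, 0.870 and 1.15 RPM (by 0.79 ± 0.15, adjusted p = 0.000132). The BH3-only gene BBC3 (PUMA; 0.06, adjusted p = 0.727) and BAX (-0.04, adjusted p = 0.435) did not pass, nor did MCL1 (0.06, adjusted p = 0.181) in this fit. With quantile normalization MCL1 passed (adjusted p = 0.0301).

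Of 21 amino acid transporters 1 rose and 5 fell (23.8% lower, against 16.2% of all genes), so the share called was near that over all genes. SLC38A2 (SNAT2), a sodium-coupled glutamine and alanine transporter induced by amino acid shortage, fell from 766, 765 and 779 RPM to 622, 613 and 606 RPM (by 0.33 ± 0.027, adjusted p = 1.18e-11). SLC7A5 (LAT1), which exchanges glutamine for leucine, fell from 404, 403 and 394 RPM to 369, 371 and 365 RPM (by 0.12 ± 0.032, adjusted p = 0.00431), and the glycine transporter SLC6A9 from 16.3, 15.8 and 16.8 RPM to 10.4, 11.9 and 9.67 RPM (by 0.57 ± 0.097, adjusted p = 1.92e-05). Their groups were apart. SLC1A4 (ASCT1), an alanine and serine exchanger, rose from 7.52, 9.27 and 8.76 RPM to 12.5, 13.3 and 12.9 RPM (0.55 ± 0.11, adjusted p = 0.000102). The main glutamine importer SLC1A5 (ASCT2) measured 205, 205 and 209 RPM and then 210, 212 and 214 RPM, and did not pass (0.04 ± 0.032, adjusted p = 0.399). For none of these 5 genes was the interaction past the threshold (lowest adjusted p = 0.55, SLC1A5).

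Among 21 enzymes of glutamine, glutamate, aspartate and proline 5 rose and 4 fell. GLUD1, glutamate dehydrogenase, fell from 304, 316 and 309 RPM to 244, 258 and 243 RPM (by 0.32 ± 0.030, adjusted p = 4.48e-10) and PYCR1, the last enzyme of proline synthesis, from 185, 176 and 180 RPM to 141, 140 and 145 RPM (by 0.34 ± 0.036, adjusted p = 2.08e-09). GFPT2, which spends glutamine on hexosamine synthesis, rose from 19.6, 20.7 and 17.9 RPM to 26.1, 23.5 and 24.5 RPM (0.33 ± 0.068, adjusted p = 0.000237). Each pair of groups was separate. Glutamine synthetase (GLUL), at about 2 RPM, did not pass (0.20 ± 0.17, adjusted p = 0.411). ATF4, the transcription factor of amino acid shortage, also did not (0.05 ± 0.039, adjusted p = 0.416), nor did its target asparagine synthetase (ASNS, -0.18 ± 0.15, adjusted p = 0.395). Other members of the ATF4 stress response list did pass. Of 16 tested members 8 rose (50%, against 14.1% of all genes) and 2 fell. When 1 library at 40 mM was left out, 4 to 8 rose. ATF3 rose by 0.51 ± 0.12 (adjusted p = 0.000854), and PSAT1 fell by 0.11 ± 0.031 (adjusted p = 0.00799).

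Glycolysis genes responded differently at the 2 glutamine levels in 13 of 26 cases. Of 26 genes 2 rose and 10 fell at 40 mM (median log2 fold change -0.06), while the median at 2 mM was 0.125. All 13 were lower at 40 mM, and 2.2% of all genes passed the interaction test. PKM, pyruvate kinase, measured 2860, 2836 and 2905 RPM without and 2418, 2351 and 2459 RPM with the drug, and fell by 0.25 ± 0.026 (adjusted p = 1.45e-09). At 2 mM it moved by 0.02, and the difference was -0.27 ± 0.036 (adjusted p = 4.71e-05). LDHA, lactate dehydrogenase, fell from 1448, 1422 and 1463 RPM to 1328, 1294 and 1332 RPM (by 0.13 ± 0.026, adjusted p = 0.000191) but rose by 0.14 at 2 mM (difference -0.27 ± 0.037, adjusted p = 6.37e-05). All treated libraries lay below all untreated ones in both genes.

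Other glycolysis genes were flat at 40 mM and rose at 2 mM. The glucose transporter SLC2A1 (GLUT1) measured 119, 112 and 115 RPM without and 111, 114 and 116 RPM with the drug at 40 mM (-0.02 ± 0.041), against a rise of 0.38 at 2 mM (difference -0.40 ± 0.058, adjusted p = 0.000112). The difference was -0.57 ± 0.085 for PDK1 (adjusted p = 0.00012), which closes entry into the TCA cycle, and -0.83 ± 0.13 for PFKFB4 (adjusted p = 0.000217), which sets the level of a glycolytic activator. Scaling matters for the most abundant genes: GAPDH (8622, 8115 and 8231 RPM, then 6846, 6553 and 6998 RPM) fell by 0.29 ± 0.031 (adjusted p = 4.93e-09). With quantile normalization its adjusted p was 0.276, that of ENO1 0.894 in place of 6.86e-05, and the list had 6 falls and 9 differences past the threshold. For GAPDH and ENO1 the interaction was also lost there (adjusted p = 0.688 and 0.608).

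Level and direction went together across the data. Of the 10% of genes with the highest mean level 35.3% fell and 18.1% rose, and of the 10% with the lowest 2.5% fell and 8.44% rose. The 10 most abundant genes of a library took 6.62 to 6.95% of reads with the drug and 7.14 to 7.57% without it. The authors' scaling factors were 1.03 in the 3 treated libraries and at most 1.002 in the others. The part of this in the falls of abundant genes was not tested.

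Ribosomal protein genes are among the most abundant, and 65 of 76 fell with 0 rises (median -0.16). RPL7A fell from 2042, 2046 and 1967 RPM to 1671, 1661 and 1719 RPM (by 0.26 ± 0.026, adjusted p = 5.98e-10) and RPL4 from 1912, 1988 and 1885 RPM to 1629, 1606 and 1638 RPM (by 0.25 ± 0.026, adjusted p = 2.38e-09). Groups were apart for both. With quantile normalization 45 of the 76 fell. Many of these genes have near-identical processed copies, so their counts are uncertain. The TCA cycle list followed the same direction, with 13 of 24 down and 1 up (median -0.11): pyruvate carboxylase (PC) fell from 38, 37.0 and 36.8 RPM to 27.0, 22.7 and 26.7 RPM (by 0.54 ± 0.069, adjusted p = 1.53e-07). No stable count was found for the 13 mitochondrially encoded genes: 2 rose and 0 fell, but 0 rose without untreated replicate 1 or 3 or treated replicate 1 or 2, 4 rose without untreated replicate 2, and 6 rose with quantile normalization. Their share of reads was 3.83 to 4.37% with and 3.82 to 4.42% without the drug.

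Lipid synthesis fell in its main steps. Of 23 fatty acid genes 2 rose and 10 fell, and of 24 cholesterol genes 2 rose and 10 fell. SCD, the desaturase that makes oleate, fell from 1118, 1121 and 1063 RPM to 750, 712 and 729 RPM (by 0.59 ± 0.030, adjusted p = 7.8e-17), and fatty acid synthase (FASN) from 697, 684 and 719 RPM to 561, 557 and 557 RPM (by 0.32 ± 0.028, adjusted p = 3.2e-11). SREBF1, the transcription factor over both, fell from 353, 359 and 353 RPM to 264, 263 and 274 RPM (by 0.41 ± 0.031, adjusted p = 1.27e-12). None of these groups overlapped. DHCR7, of the last step of cholesterol synthesis, fell from 75.2, 76.8 and 79.1 RPM to 60.9, 55.5 and 57.0 RPM (by 0.41 ± 0.048, adjusted p = 3.11e-08). Its response was lower at 40 mM than at 2 mM, by -0.32 ± 0.068 (adjusted p = 0.00774).

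Iron storage and redox genes under NRF2 fell in 10 of 22 cases and rose in 5. The ferritin light chain FTL fell from 4009, 3884 and 3869 RPM to 2744, 2699 and 2851 RPM (by 0.50 ± 0.027, adjusted p = 1.29e-16) and the quinone reductase NQO1 from 1029, 1023 and 1072 RPM to 769, 744 and 780 RPM (by 0.45 ± 0.027, adjusted p = 4.07e-15). AKR1C1, a steroid-reducing enzyme with near-identical relatives, fell from 118, 126 and 133 RPM to 78.9, 78.0 and 83.3 RPM (by 0.64 ± 0.041, adjusted p = 2.8e-14). The groups were apart in each. The related aldose reductase AKR1B1 went the other way, from 7.69, 7.18 and 5.83 RPM to 18.8, 19.2 and 22.2 RPM (1.42 ± 0.10, adjusted p = 7.91e-13), and the glutathione synthesis subunit GCLM rose by 0.11 ± 0.030 (adjusted p = 0.00624).

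In a list of brakes on growth signalling and related genes 10 of 21 fell and 2 rose (median -0.18). The falls include IRS1 (by 0.24) and IRS2 (by 0.23), which are not brakes. The 2 rises were SESN2 (0.21), an inhibitor of mTORC1, and TXNIP (0.31). DDIT4 (REDD1), an inhibitor of mTORC1, fell from 165, 137 and 142 RPM to 86.4, 85.5 and 94.8 RPM (by 0.73 ± 0.055, adjusted p = 1.5e-12), and CASTOR1, the arginine sensor that restrains mTORC1, from 12.7, 13.9 and 14.99 RPM to 8.63, 10.2 and 9.99 RPM (by 0.49 ± 0.097, adjusted p = 0.000167). Of the ID proteins, which block differentiation factors, ID2 fell from 51.4, 48.7 and 48.2 RPM to 28.9, 28.8 and 29.6 RPM (by 0.74 ± 0.056, adjusted p = 1.73e-12) and ID3 from 286, 253 and 271 RPM to 180, 186 and 188 RPM (by 0.55 ± 0.036, adjusted p = 4.27e-14). Every treated value was below every untreated one. MXD4, an antagonist of MYC, fell from 84.1, 74.2 and 75.6 RPM to 50.6, 46.5 and 50.3 RPM (by 0.65 ± 0.051, adjusted p = 2.92e-12), and DBP, a clock output factor, from 58.9, 50.02 and 48.5 RPM to 30.3, 29.7 and 34.3 RPM (by 0.72 ± 0.073, adjusted p = 1.25e-09).

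The remaining large falls at or above the median level were in genes of varied roles. They include the glycosyltransferase MGAT5B (49.3, 50.6 and 44.3 RPM, then 26.3, 28.5 and 26.3 RPM, a fall by 0.81 ± 0.061), the phospholipase PNPLA6 (210, 202 and 213 RPM, then 127, 130 and 130 RPM, by 0.69 ± 0.037) and the ADP-ribose hydrolase MACROD1 (54.1, 55.3 and 49.5 RPM, then 31.3, 32.3 and 34.4 RPM, by 0.68 ± 0.057). TGFBR3 (betaglycan), a TGF-beta co-receptor, fell from 76.2, 70.4 and 72.8 RPM to 45.2, 45.5 and 46.6 RPM (by 0.66 ± 0.053) and CLIP2, a microtubule linker, from 203, 192 and 199 RPM to 126, 122 and 126 RPM (by 0.66 ± 0.038). Adjusted p values of these 5 genes ran from 2.55e-16 (PNPLA6) to 1.65e-11 (MACROD1), and their groups did not overlap. Below the median level GPD1, glycerol-3-phosphate dehydrogenase, fell from 3.89, 2.60 and 2.71 RPM to 0.759, 1.16 and 1.38 RPM (by 0.95 ± 0.17, adjusted p = 3.17e-05).

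**Figure D3:**
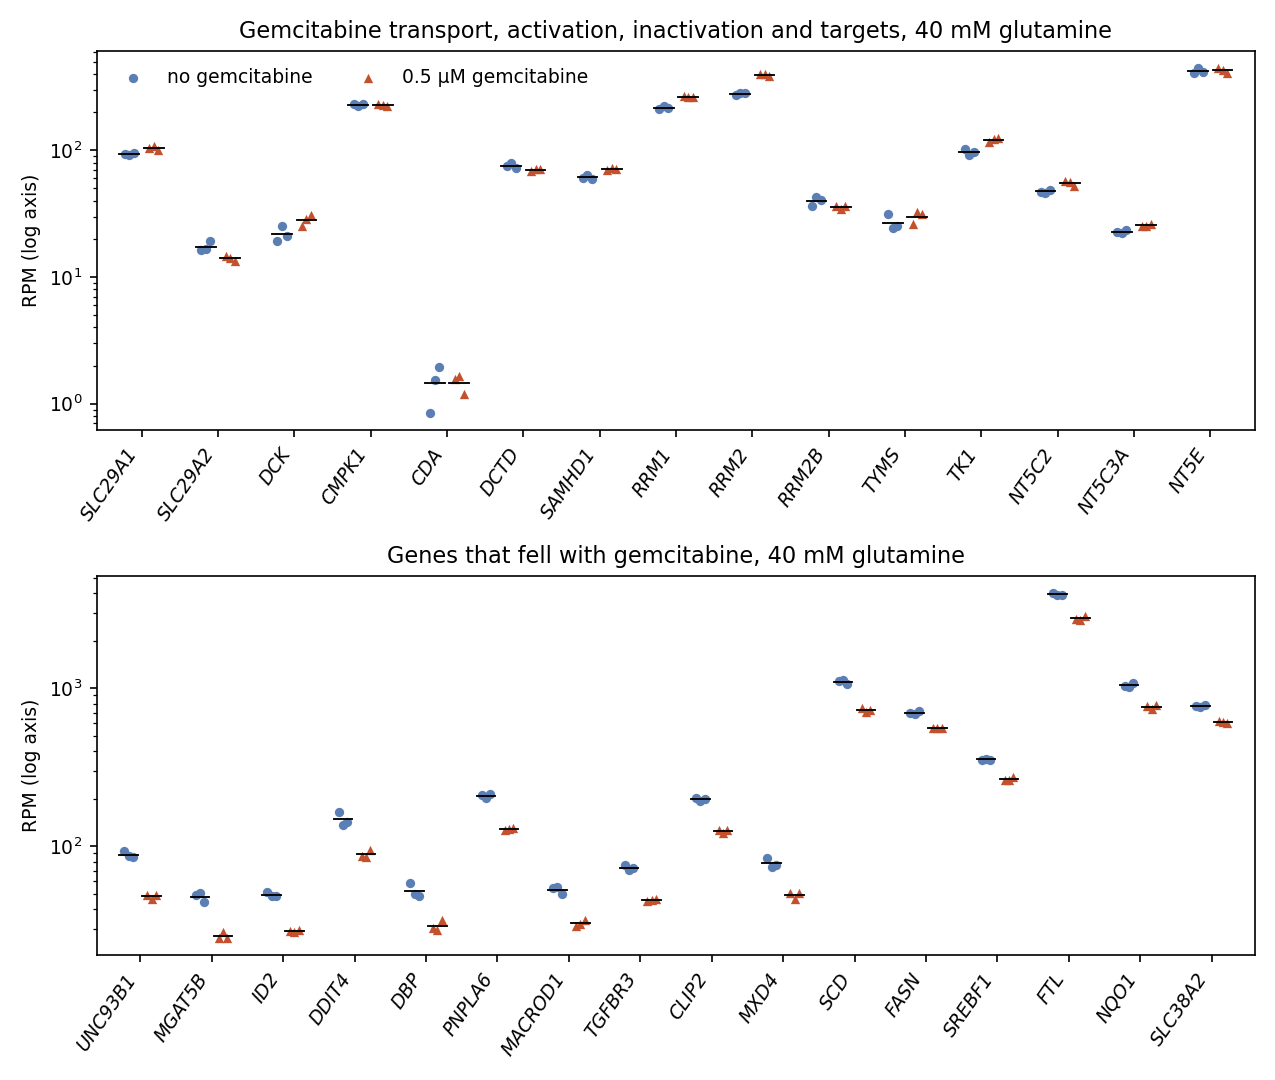
Levels at 40 mM glutamine without (circles) and with 0.5 µM gemcitabine (triangles), in RPM on a log axis, 1 point per library, with bars at the group means. In the upper panel RRM2 rose (275 to 285 against 383 to 402 RPM) while CDA stayed below 2 RPM; in the lower panel each gene shows treated libraries below untreated ones, as in UNC93B1 (85.5 to 92.8 against 46.2 to 49.1 RPM).

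**Figure D4:**
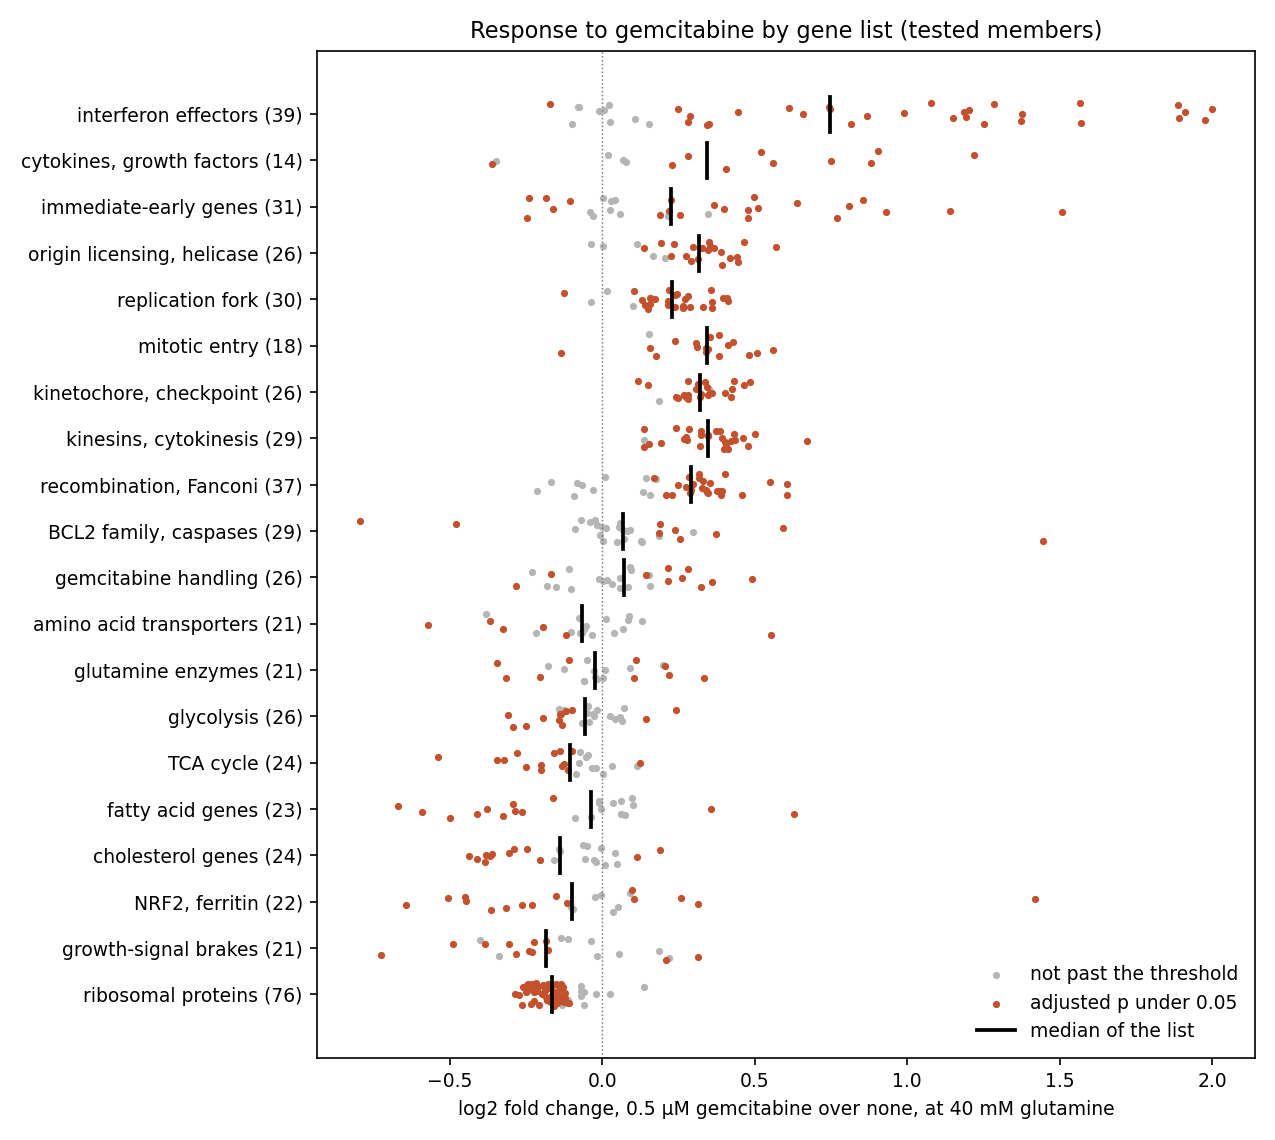
Log2 fold change with gemcitabine at 40 mM glutamine for each tested member of the gene lists shown, with the number of members in brackets. Red points passed the adjusted threshold, grey ones did not, and bars mark list medians, which run from 0.75 for interferon effectors to -0.18 for growth-signal brakes. The list labelled growth-signal brakes also holds other genes, such as IRS1.

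Over all genes, 281 passed the interaction test, 93 with a higher and 188 with a lower response at 40 mM. Of the 188, 79 rose past the threshold at 2 mM and did not pass at 40 mM, 45 rose at both levels, and 45 fell at 40 mM and did not pass at 2 mM. Leaving out 1 library lowered the count of 281 by more than 1.5 times in 6 of 12 cases. It was 165 without untreated replicate 3 and 174 without treated replicate 1 at 40 mM. At 2 mM it was 165 without untreated replicate 1, and 155, 157 and 180 without treated replicate 1, 2 or 3.

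At or above the median level, 12 genes passed the interaction test and the test at each glutamine level, in opposite directions: 3 rose and 9 fell at 40 mM. SLC20A1, a phosphate importer, had the smallest interaction p of all: it rose from 208, 221 and 215 RPM to 261, 265 and 260 RPM at 40 mM (0.29 ± 0.032, adjusted p = 7.53e-09) and fell by 0.14 at 2 mM (adjusted p = 0.000562), a difference of 0.43 ± 0.045 (adjusted p = 4.66e-07). CLDN4, a tight junction protein, rose from 103, 90.8 and 86.5 RPM to 108, 107 and 120 RPM (0.26 ± 0.048, adjusted p = 5.3e-05) and fell by 0.14 at 2 mM (difference 0.40 ± 0.067, adjusted p = 0.000522). In these 2 genes the treated libraries at 40 mM lay above the untreated ones. GYS1, glycogen synthase, fell from 182, 168 and 170 RPM to 148, 140 and 155 RPM (by 0.23 ± 0.039, adjusted p = 2.21e-05) and rose by 0.11 at 2 mM (difference -0.34 ± 0.055, adjusted p = 0.000341). PGM1, phosphoglucomutase, fell from 116, 116 and 112 RPM to 104, 102 and 108 RPM (by 0.14 ± 0.038, adjusted p = 0.00617) and rose by 0.14 at 2 mM (difference -0.28 ± 0.054, adjusted p = 0.00295). Both enzymes serve glycogen synthesis, and their treated libraries at 40 mM lay below the untreated ones.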

How the data were processed

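RNA was sequenced from MIA PaCa-2 cells in 4 groups of 3 libraries. The authors deposited 1 table of log2 values for 15090 genes. The values correspond to log2(RPM + 1) with a further scaling factor per library, as worked out from the values. After reversal 100% of them were whole multiples of 1 read (tolerance 0.05 read). The aligner, annotation and build were not given in the sources used here. Genes with at least 1 RPM in at least 3 of 12 libraries (12789) were fitted on the deposited log2 values with limma 3.58.1 in R 4.3.3. The fit used 4 group means over all 12 libraries, moderation with a mean trend and Benjamini-Hochberg adjustment over all tested genes, at a threshold of 0.05. The interaction subtracted the log2 response at 2 mM from the one at 40 mM. SE denotes limma's moderated standard error. The script was tested on simulated data.

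Named genes were the 15 largest called rises and falls at or above the median level (28.4 RPM) whose groups did not overlap, the 5 largest below it, the members of the gene lists, the 15 smallest interaction p-values, and genes at or above the median level called in opposite directions at the 2 glutamine levels. The text gives a selection of them. Members and lists were chosen with earlier results of these data known. Median depth was 715 reads per tested gene and library, a counting error of 3.74%. Promoters came from a RefSeq table of GRCh38.p14, matched by symbol for 9858 tested genes. Alternatives varied the pseudocount, filter, scaling, moderation, weights, samples fitted and replicate block, and left out each library in turn. Results for some genes are not reported here.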

Additional observations from a re-analysis of the deposited data

Results flagged for a closer look

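The genes below passed the test of the difference between the drug responses at 40 mM and 2 mM glutamine (limma interaction, adjusted over all tested genes). Values are the log2 response at 40 mM minus that at 2 mM. Larger at 40 mM were the responses of SLC20A1 (0.43) and CLDN4 (0.40), which fell at 2 mM, of the interferon effectors DDX60 (0.46), IFIT1 (0.41) and IFI6 (0.40) and of the matrix protein CCN1 (0.34). The mitotic genes HMMR (0.29), PTTG1 (0.23), BUB1 (0.21) and CCNB1 (0.21) went the same way.

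Lower at 40 mM were the responses of the replication genes CDC6 (-0.46), MCM5 (-0.38), CHAF1A (-0.38), PCNA (-0.34), MCM4 (-0.27) and MCM7 (-0.23), and of the nucleotide and transport genes TK1 (-0.33), RRM2 (-0.27) and SLC29A1 (-0.26). In glucose metabolism they were PFKFB4 (-0.83), PDK1 (-0.57), SLC2A1 (-0.40), GYS1 (-0.34), GAPDH (-0.28), PGM1 (-0.28), PKM (-0.27), LDHA (-0.27) and ENO1 (-0.21). The sterol gene DHCR7 (-0.32) followed. MYC (-0.18) and KRT8 (-0.14) passed as well, but missed the threshold in 5 and 7 of the 12 fits that left out 1 library, and with quantile normalization (adjusted p = 0.0964 and 0.467).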

How the results depend on the processing

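Leaving out 1 of the 12 libraries at a time gave 1501 to 1827 rises and 1740 to 2103 falls at 40 mM, and 155 to 366 genes past the interaction test, against 281 with all 12. The 6 libraries without which that count fell by more than 1.5 times are named above. The other alternatives gave 1621 to 1888 rises, 1921 to 2080 falls and 212 to 331 interactions. No result reversed. With quantile normalization the falls of GAPDH, ENO1 and VIM (adjusted p = 0.784) at 40 mM missed the threshold. Deviations of same-numbered libraries correlated weakly (-0.077 to 0.048), as did those of differently numbered ones (-0.080 to 0.092). With 3 libraries a group this cannot decide whether the numbers pair the samples. The fit with a replicate block called 1813 rises, 2080 falls and 306 interactions. Count models were not run; a fit with voom weights on the recovered reads called 1779 rises and 2035 falls. Counts of 1 or 2 members of a list often moved by 1 when a library was left out. Depth limits genes near 1 RPM, such as CDA and TLR3.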

Other observations

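The unfolded protein response and the epithelial and YAP target lists have not been described so far. Of 22 chaperones and regulators of the endoplasmic reticulum 8 rose and 0 fell, by small amounts. HSPA5 (BiP), its main chaperone, measured 872, 890 and 875 RPM without and 989, 963 and 995 RPM with the drug (0.16 ± 0.026, limma adjusted p = 1.24e-05), and the factor XBP1 79.1, 79.6 and 81.5 RPM and then 86.4, 94.1 and 93.6 RPM (0.19 ± 0.045, adjusted p = 0.00156). The groups were apart in both.

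Of 11 tested epithelial genes 4 rose and 2 fell. KRT8 rose from 1355, 1360 and 1371 RPM to 1695, 1703 and 1700 RPM (0.32 ± 0.026, adjusted p = 6.29e-12) and its partner KRT18 from 899, 882 and 795 RPM to 1015, 1082 and 1015 RPM (0.27 ± 0.035, adjusted p = 1.54e-07). KRT19, a ductal keratin, fell from 236, 235 and 221 RPM to 199, 196 and 212 RPM (by 0.19 ± 0.035, adjusted p = 6.9e-05). Keratins thus moved in both directions with no overlap between groups. Of 12 YAP targets and regulators 5 rose and 3 fell, with 3 rises without treated replicate 1 or 2. CCN1 (CYR61), a matrix protein, rose from 28.6, 27.8 and 27.6 RPM to 50.4, 54.3 and 50.4 RPM (0.86 ± 0.051, adjusted p = 3.68e-15), and the kinase LATS2, which restrains YAP, fell from 62.0, 64.5 and 61.3 RPM to 54.9, 58.3 and 53.3 RPM (by 0.17 ± 0.048, adjusted p = 0.00619). The other falls were AMOTL2 (by 0.28 ± 0.036, adjusted p = 2.16e-07) and AJUBA (by 0.27 ± 0.065, adjusted p = 0.00132). CCN2 did not pass (0.11 ± 0.18, adjusted p = 0.7), so the list had no common direction.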
